A study of Mus musculus with 12 samples.

Results

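Of the 63309 regions of open chromatin listed for thymic iNKT cells, 960 (1.52%) were closed in C57BL/6 iNKT17 cells and open in both C57BL/6 iNKT1 and iNKT2 cells. They were chosen from the 6 C57BL/6 libraries. In each of them the lowest of the 4 iNKT1 and iNKT2 libraries lay at least 1.585 (3-fold) above the higher of the 2 iNKT17 libraries on the log2 scale, and was itself at least 2.32, which is 5 normalized insertions per kilobase. The difference between these 2 libraries is called the gap below. Closed is used in this relative sense. In 135 of the 960 regions (14.1%, with 80.5% of all regions) both C57BL/6 iNKT17 libraries were themselves at 5 insertions per kilobase or higher. By the mirrored rules, 1042 regions were closed only in iNKT1, 329 were closed only in iNKT2 and 3294 were open only in iNKT17 cells. Since the C57BL/6 values chose the regions, they are given as a description, and tests were run on the 6 Hivep3-/- libraries, which the rule did not use.

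ATAC-seq, in which a transposase inserts adapters into accessible DNA, was performed on untreated thymocytes from C57BL/6 mice and from Hivep3-/- mice backcrossed to C57BL/6, aged 8-9 weeks. HIVEP3 is a zinc finger protein, and Hivep3-/- mice carry the deletion on both alleles, with no restriction to a cell type given in the labels. Cells were sorted from pooled thymi as iNKT1 (CD122+ ICOS-), iNKT2 (CD122- ICOS+ Izumo1r+ CD138-) and iNKT17 (CD122- ICOS+ Izumo1r- CD138+), mixed for the transposition and sorted again by ICOS and CD138, since the CD122 and Izumo1r stains did not survive it. Each subset and genotype had 2 libraries, 12 in all, whose titles number mice although the cells came from pooled thymi, so that p-values measure only the spread between these libraries.

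iNKT cells are T cells with an invariant T cell receptor that sees lipids on CD1d, and they acquire effector programs already in the thymus. iNKT1 cells depend on T-bet and make IFN-γ, iNKT2 cells make IL-4, and iNKT17 cells make IL-17. A region that is open in a cell type often acts there as a promoter or enhancer. A fully closed region is wrapped in nucleosomes and is rarely cut by the transposase.

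The subset labels were checked at the promoters of marker genes. The promoters of Ccr6, Il23r, Sdc1 (CD138) and Il1r1 had their highest mean in iNKT17 cells of both genotypes, where it was 4.62–6.25, and reached at most 3.80 in iNKT1 and iNKT2 cells. Those of Tbx21, Il2rb, Ifng, Xcl1 and Nkg7 were highest in iNKT1 cells of both genotypes. Of the iNKT2 markers, Izumo1r, Il4 and Gata3 were highest in iNKT2 cells of both genotypes, but Il17rb (4.93 in C57BL/6 iNKT2 and 5.11 in iNKT1) and Icos (5.50 and 5.56) were not. The promoters of 4 B cell, 4 myeloid and 5 immature thymocyte markers held 0 regions of the table. The promoter of Hivep3 lay between 6.36 and 6.72 in all 12 libraries, so that accessibility there does not check the deletion. The depth of the libraries cannot be read from the normalized values. Low values were coarsest in the Hivep3-/- iNKT17 libraries, which held 85 and 73 different values up to their median, against 91–491 in the other 10.

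The sequences shown first are those of the regions with the largest C57BL/6 gaps in which a T-box sequence (AGGTGTGA on either strand) was found, the letters that were most concentrated among these regions. T-box letters are bound by T-bet (Tbx21) and Eomes. They were taken from the plus strand of the RefSeq GRCm38.p6 (mm10) genome as the central 300 bases, with the T-box match in capitals. The first covers the promoter of Samd3 (chr10:26229561-26229860), the second lies 1.35 kb upstream of the same start site (chr10:26228212-26228511), and the third lies in an intron of Ccdc80 (chr16:45105092-45105391).
Samd3 promoter: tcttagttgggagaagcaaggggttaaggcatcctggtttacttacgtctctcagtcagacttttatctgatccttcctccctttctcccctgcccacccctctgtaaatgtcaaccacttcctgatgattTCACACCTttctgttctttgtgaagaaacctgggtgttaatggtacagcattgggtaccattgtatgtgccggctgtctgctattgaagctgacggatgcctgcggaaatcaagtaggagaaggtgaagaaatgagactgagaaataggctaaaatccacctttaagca
Samd3 upstream: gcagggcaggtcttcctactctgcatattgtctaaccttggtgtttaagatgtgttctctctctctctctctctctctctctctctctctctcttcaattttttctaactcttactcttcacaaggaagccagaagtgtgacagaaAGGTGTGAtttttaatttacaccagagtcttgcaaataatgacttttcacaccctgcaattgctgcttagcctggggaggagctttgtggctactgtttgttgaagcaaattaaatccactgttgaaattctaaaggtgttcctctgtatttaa
Ccdc80 intron: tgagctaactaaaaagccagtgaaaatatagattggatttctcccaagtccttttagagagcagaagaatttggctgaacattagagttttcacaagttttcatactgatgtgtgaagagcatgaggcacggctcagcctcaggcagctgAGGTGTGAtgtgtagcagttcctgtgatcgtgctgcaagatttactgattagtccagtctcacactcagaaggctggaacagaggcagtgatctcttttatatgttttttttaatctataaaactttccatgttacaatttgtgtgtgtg

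The next sequence comes from the run with the most such regions, 5.98 kb upstream of Zfp683 (chr4:134047704-134048003). It holds no T-box match in these 300 bases, and the capitals mark a Runt match (AACCACA on either strand).
Zfp683 upstream: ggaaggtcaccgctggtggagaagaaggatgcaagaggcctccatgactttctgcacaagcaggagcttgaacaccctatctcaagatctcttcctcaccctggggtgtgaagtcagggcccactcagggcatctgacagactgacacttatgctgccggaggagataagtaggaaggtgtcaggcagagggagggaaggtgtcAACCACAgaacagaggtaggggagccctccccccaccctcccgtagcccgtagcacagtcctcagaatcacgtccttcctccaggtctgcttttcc

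The last sequence is shared by the copies that hold the largest gap. Of the 960 regions, 6 lay at the variable segments Trav15d-2-dv6d-2, Trav15n-2 and Trav15-2-dv6-2 of the T cell receptor alpha and delta locus, in 2 sets of 3 copies. The 3 upstream copies were 92.4–98.8% identical over 500 bp and the 3 promoter copies 93.6–96.6%. The central 150 bases of the upstream copies, at chr14:52953346-52953495, chr14:53264365-53264514 and chr14:53645847-53645996, were the same in all 3. Reads from such stretches cannot be assigned to 1 copy, so these regions are not independent measurements.
Trav15 upstream, all 3 copies: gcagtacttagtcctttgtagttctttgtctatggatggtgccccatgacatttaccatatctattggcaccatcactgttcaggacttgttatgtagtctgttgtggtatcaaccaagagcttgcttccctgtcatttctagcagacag

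**Figure D1:**
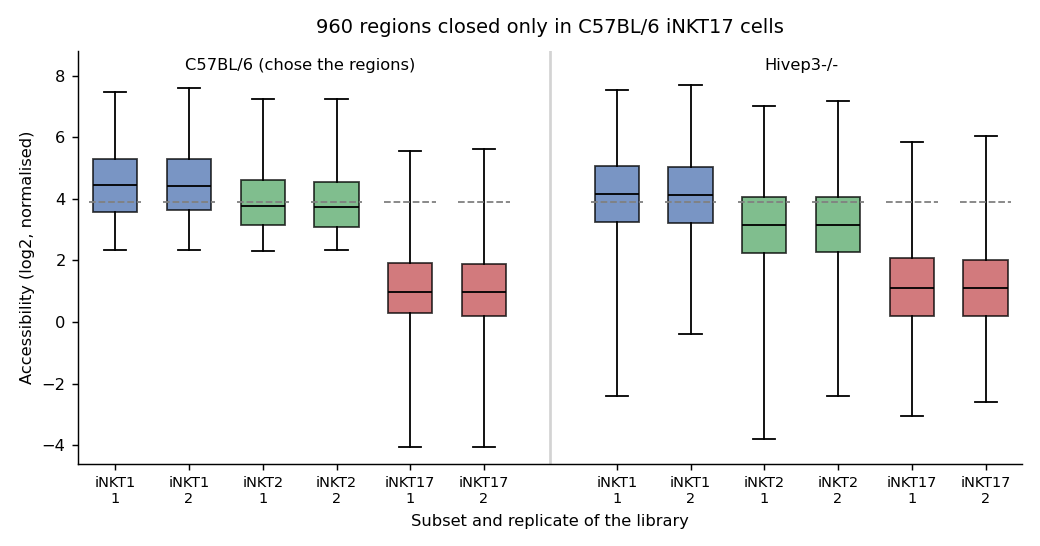
Accessibility (log2) of the 960 regions in each of the 12 libraries. Boxes span the quartiles with the median as a line, whiskers reach the lowest and highest region, and dashed grey lines mark the median of all 63309 regions. In both genotypes the iNKT17 medians, 0.97–1.11, lie under the iNKT1 and iNKT2 medians, 3.14–4.44. In C57BL/6 libraries the rule required this.

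To ask whether these regions were also closed in iNKT17 cells that the rule had not used, accessibility was compared between the Hivep3-/- subsets. The regions remained less accessible in Hivep3-/- iNKT17 cells. Their median was 4.18 and 4.11 in the 2 Hivep3-/- iNKT1 libraries, 3.14 and 3.17 in the iNKT2 libraries and 1.10 and 1.11 in the iNKT17 libraries. In C57BL/6 cells the medians were 4.44 and 4.42, 3.78 and 3.74, and 0.97 and 0.97. The fitted difference between Hivep3-/- iNKT17 and iNKT1 cells was below 0 in 957 of the 960 regions, with a median of −2.88, and that between iNKT17 and iNKT2 cells was below 0 in 947, with a median of −2.03. Over all regions the medians of these differences were −0.02 and −0.04.

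By limma, with an adjusted p under 0.1 and at least a 3-fold difference, 832 regions (86.7%) were called lower in Hivep3-/- iNKT17 than in iNKT1 cells, where 9.69% of all regions were called. Against Hivep3-/- iNKT2 cells, 649 (67.6%) were called, with 7.86% of all regions, and 574 (59.8%) were called against both, with 2.88% of all regions. None of the 960 was called higher in Hivep3-/- iNKT17 than in iNKT1 or iNKT2 cells (limma; 0 and 2 had an unadjusted p under 0.05 above 0), where 9.85% and 8.27% of all regions were called higher. Both Hivep3-/- iNKT17 libraries lay under all 4 other libraries in 882 regions (91.9%), which held for 20.2% of all regions. These calls depended on the constant added to low values. With 1 added on the linear scale, 361 regions (37.6%) were called against both, with 1.13% of all regions. With 5 added, 72 (7.5%) were called against both, with 0.133% of all regions. With 5 added 467 and 138 were called against iNKT1 and against iNKT2, for which no share of all regions was counted.

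The rule itself was met again by the Hivep3-/- libraries in 288 regions (30.0%), with 0.826% of all regions meeting it. The Hivep3-/- libraries alone chose 523 regions, of which the 288 make up 55.1%. For comparison, 47.5% of the regions closed only in iNKT1, 62.3% of those closed only in iNKT2 and 77.6% of those open only in iNKT17 met their own rule again. The gap ranged from 1.59 to 7.59 in C57BL/6 cells, with a median of 2.12, and from −3.24 to 6.24 in Hivep3-/- cells, with a median of 1.34. In 76 regions (7.92%) it was below 0 in Hivep3-/- cells. The regions nearest to the gap threshold had gaps of 1.59, 1.59 and 1.59 inside (near Mvb12b, Rgs2 and Tmem86b) and 1.58 and 1.58 outside (near Unc5cl and Epcam). Those nearest to the level threshold had a lowest library at 2.32 inside (near Ksr1, Gm5148 and Ascc2) and at 2.30 outside (near Kif21b, Atp6v1g3 and Suco).

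**Figure D2:**
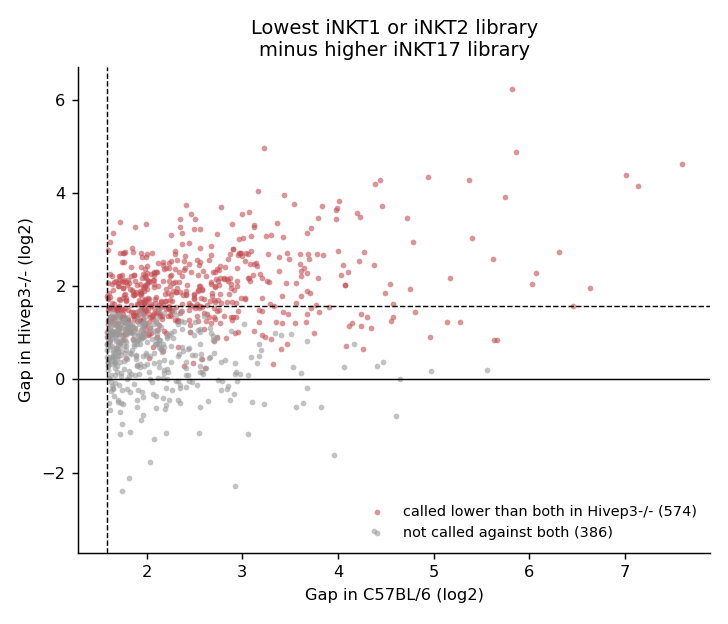
Gap of each of the 960 regions in Hivep3-/- against C57BL/6 libraries (log2), with dashed lines at the threshold of the rule (1.585) and a solid line at 0. The 574 regions called lower than both other subsets in Hivep3-/- cells are in red and the other 386 in grey. In 288 regions the Hivep3-/- libraries met the whole rule, with both its gap and its level threshold. Further regions lie above the gap threshold in both genotypes but miss the level threshold in Hivep3-/- cells.

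The lower share against iNKT2 cells went with a lower level in iNKT2 than in iNKT1 cells. In C57BL/6 cells the medians were already 3.76 in iNKT2 and 4.40 in iNKT1, against 3.12 and 4.12 in Hivep3-/- cells. Hivep3-/- minus C57BL/6, the median over the 960 regions came to −0.29 for iNKT1, −0.66 for iNKT2 and 0.05 for iNKT17 cells, whereas it lay between −0.02 and 0.00 over all regions. Of the 960, 800 were lower in Hivep3-/- iNKT2 cells and 720 in Hivep3-/- iNKT1 cells, while 457 were lower in iNKT17 cells. The rule picked iNKT1 and iNKT2 values that were high in C57BL/6 libraries, which by itself favours differences below 0, so that no test was made. At the 523 regions that the Hivep3-/- libraries chose, where the rule favours the other direction, the medians were 0.01, −0.24 and −0.36. Of these 523, the 288 that both genotypes chose had medians of −0.17, −0.34 and −0.27, so that the second set is not free of the C57BL/6 selection. Both Hivep3-/- iNKT2 libraries were under 5 insertions per kilobase in 205 of the 960 regions (21.4%, with 14.7% of all regions), and both Hivep3-/- iNKT1 libraries in 73 (7.60%, with 15.9%). In bulk samples, fewer cells with an open region and less opening per cell cannot be told apart.

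The difference in iNKT2 cells was also described by the C57BL/6 ratio of iNKT1 to iNKT2, which shares its C57BL/6 iNKT2 values with the difference and with the rule. In the 81 regions with iNKT1 at least 4-fold above iNKT2 in C57BL/6 cells the median difference between genotypes in iNKT2 cells was −1.43, in the 208 regions with 2- to 4-fold it was −0.91, in the 636 within 2-fold it was −0.51 and in the 35 with iNKT2 at least 2-fold higher it was −0.51. Within Hivep3-/- cells, 295 of the 960 regions (30.7%) were called higher in iNKT1 than in iNKT2 cells by limma, with 8.76% of all regions, and 32 (3.33%) were called lower, with 9.01% of all regions. Of the iNKT1 marker promoters, those of Ifng, Xcl1 and Nkg7 are among the 960 regions. From C57BL/6 to Hivep3-/- iNKT2 cells their means fell from 4.81 to 2.73, from 3.99 to 2.97 and from 3.75 to 1.46. The other 2 moved little between C57BL/6 and Hivep3-/- iNKT2 cells, from 4.58 to 4.28 at Tbx21 and from 7.62 to 7.56 at Il2rb. The summed linear level of all 5 was 536–542 in C57BL/6 and 485–525 in Hivep3-/- iNKT2 libraries. In C57BL/6 iNKT17 libraries, where Ifng, Xcl1 and Nkg7 were lowest, it was 619–633, so that this sum does not follow those promoters. That of the 5 iNKT2 marker promoters was 420–455 in C57BL/6 and 372–375 in Hivep3-/- iNKT2 libraries. The part of these markers in the lower iNKT2 levels was not tested.

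The 960 regions were mostly away from promoters. Of them, 80 (8.33%, 95% Wilson interval 6.75–10.3%) were centred within 1000 bp of a start site, against 31.2% of all regions, 511 (53.2%) lay in introns, 339 (35.3%) between genes and 30 (3.12%) in exons. The regions closed only in iNKT1, closed only in iNKT2 and open only in iNKT17 were similar in this respect, with 9.12%, 7.60% and 7.53% at promoters. Promoters were counted at the starts of all annotated transcripts, but distances only to those of protein-coding, T cell receptor and immunoglobulin genes. The median distance was 22.6 kb, against 9.13 kb over all regions. Of the 960, 144 (15.0%) were more than 100 kb away, with 7.16% of all regions. That share was 15.5% in the regions closed only in iNKT1, 10.3% in those closed only in iNKT2 and 14.7% in those open only in iNKT17. The median GC content was 48.1%.

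Of the 80 regions at promoters, 46 (57.5%) were called against both other subsets in Hivep3-/- cells. Their start sites included those of cytokines, chemokines and cytotoxic proteins (Ifng, Il4, Ccl5, Xcl1, Nkg7), of receptors (3 regions at Il12rb2, 3 at Izumo1r, Cd200r4 and Cd300lf) and of Samd3, Zfp683's neighbour Crybg2, Igsf23, Ms4a4b, Plac8, Gimap7 and Dapk2. These were named after their values were seen.

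The T-box sequence was found in 118 of the 960 regions (12.3%, 95% Wilson interval 10.4–14.5%) and in 2.91% of all 500 bp regions. Outside promoters the shares were 11.7% and 3.45%. It was found in 2.02% of the regions closed only in iNKT1, in 3.95% of those closed only in iNKT2 and in 2.09% of those open only in iNKT17. The Wilson intervals of these shares, which cover counting error only, ended at 6.64% or lower. Among the 960, the share was 27.2% where C57BL/6 iNKT1 cells were at least 4-fold above iNKT2 cells, 14.9% at 2- to 4-fold, 10.1% within 2-fold and 2.86% (1 of 35) where iNKT2 cells were at least 2-fold higher. Among the regions outside the 960, the shares in the same classes were 9.01%, 4.18%, 2.26% and 2.19%. By the Hivep3-/- calls, 22.0% of the 295 regions called higher in iNKT1 than in iNKT2 cells held it, 0 of the 32 called lower and 8.37% of the 633 called neither. In Hivep3-/- iNKT17 cells, 68 of the 118 regions with a match (57.6%) and 506 of the 842 without (60.1%) were called lower than in both other subsets. Of the 235 regions that only the Hivep3-/- libraries chose, 3.83% held the T-box sequence.

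**Figure D3:**
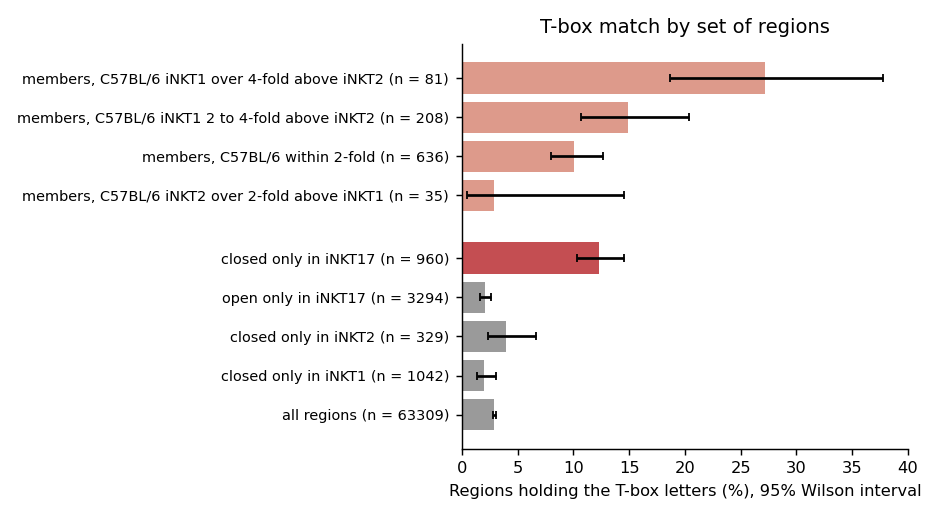
Share of regions (%) with a T-box match in their 500 bp, with 95% Wilson intervals as error bars, for all regions, for the 4 sets of subset-specific regions and for the 960 regions split by the C57BL/6 ratio of iNKT1 to iNKT2. The share is 12.3% in the regions closed only in iNKT17 and 2.02–3.95% in the other bars of the lower block.

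Of the other 11 sequences searched on both strands, none was as concentrated. AGGAAGT (Ets) was found in 27.9% of the 960 regions and in 21.3% of all regions, its longer form ACAGGAAGT in 6.15% and 4.01%, and AACCACA (Runt) in 21.8% and 17.4%. For AGATAA, the letters of GATA factors, the shares were 28.9% and 20.6%, and for TCAAAG (TCF) they were 35.5% and 30.5%. CAGCTG (E protein) was found in 30.6% and 27.1%, TGANTCA (bZIP) in 17.4% and 15.9% and TTTTCCA (NFAT) in 10.7% and 10.1%. GCGTGGGCG (Egr) was found in 1 of the 960 and in 0.643% of all regions, and the NF-κB sequence in 7.71% and 8.60%. TNGGTCA (ROR) was found in 17.5% of the 960 and in 18.6% of all regions, but in 47.8% of the regions open only in iNKT17. Outside promoters, where most of the 960 lie, the shares came closer for Runt (22.2% and 21.4%), TCF (35.0% and 34.9%) and GATA (28.7% and 24.5%). They also came closer for Ets (28.0% and 24.6%) and its longer form (6.14% and 4.98%), and for bZIP they were 18.1% and 19.0%. In the sets by the mirrored rules, over all their regions, the share was 23.8–32.2% for Runt and 21.6–29.9% for GATA. These are matches of letters and not sites of binding.

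Part of the regions lay in groups. Of the 960, 359 (37.4%) lay within 20 kb of another, and there were 49 runs of 3 or more. Grouping was not counted for all regions or for the sets by the mirrored rules, so these counts have no share beside them. They were nearest to the start sites of 649 genes, of which 162 had at least 2 and 17 at least 5. The 7 genes with the most were Inpp4b with 15, Ugcg with 11, Chmp6 with 9 and Cd5, Izumo1r, Zfp683 and Zmiz1 with 7 each.

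**Figure D4:**
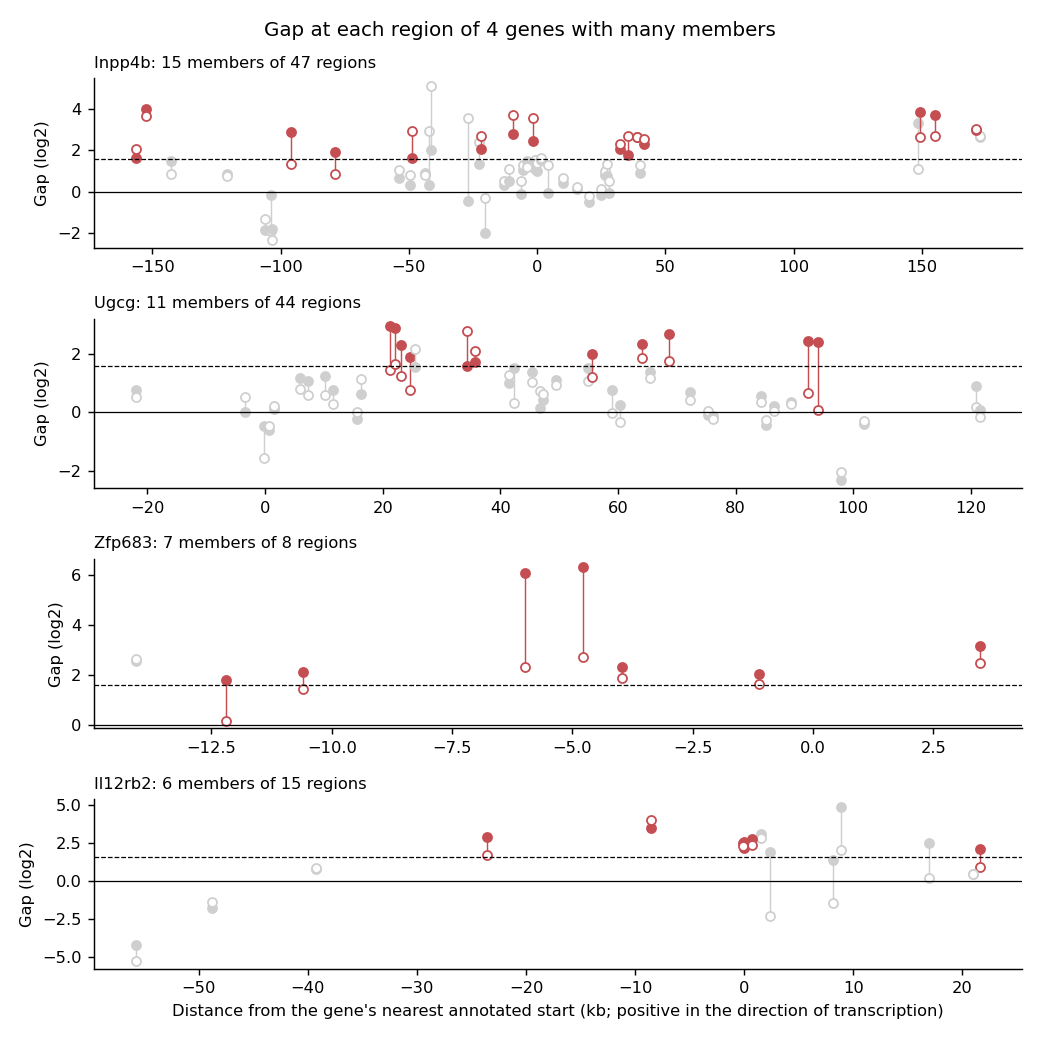
Gap (log2) of every region nearest to Inpp4b, Ugcg, Zfp683 and Il12rb2 by its distance in kb from the gene's nearest annotated start. Filled points are C57BL/6 and open points Hivep3-/- gaps, the 960 regions are red and all others grey, the dashed line is the threshold of 1.585 and the solid line 0. At these 4 genes every red open point lies above 0.

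Inpp4b encodes a lipid phosphatase that acts on products of PI3 kinase. Of the 47 regions nearest to it, 15 were closed only in iNKT17 cells, and 14 of these were called lower than both other subsets in Hivep3-/- cells. Their median gap was 2.46 in C57BL/6 and 2.68 in Hivep3-/- cells. The one with the largest C57BL/6 gap (chr8:81562392-81562891, intron) was at 3.23 and 2.82 in C57BL/6 iNKT1, 3.37 and 2.61 in iNKT2 and −1.38 and −4.05 in iNKT17 libraries. The Hivep3-/- libraries were at 3.52 and 3.16, 2.89 and 3.37, and −0.78 and −1.06. In Hivep3-/- cells the iNKT17 libraries were apart from all others, which the rule required in C57BL/6 cells. The iNKT1 and iNKT2 libraries overlapped in both genotypes.

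Ugcg encodes glucosylceramide synthase, the first enzyme of glycosphingolipid synthesis. Of its 44 regions 11 were closed only in iNKT17 cells, 9 of them in 1 run of 47.9 kb, and 8 of the 11 were called against both subsets in Hivep3-/- cells. The 9 regions assigned to Chmp6 lay upstream of its start, in a run of 43.7 kb that includes introns of Rptor, the gene of the mTORC1 subunit raptor, and all 9 were called. The one farthest below both other subsets in Hivep3-/- cells (chr11:119871085-119871584, intron of Rptor) was at 5.92 and 5.93 in Hivep3-/- iNKT1, 5.20 and 4.90 in iNKT2 and 1.32 and −1.06 in iNKT17 libraries. Its fitted differences were −5.80 ± 0.59 (SE, limma adjusted p = 6.49e-05) against iNKT1 and −4.92 ± 0.59 (adjusted p = 0.000234) against iNKT2. Cd5, a receptor that restrains T cell receptor signals, had 7 regions of which 2 were called, and Zmiz1 had 7 of which 4 were called.

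Zfp683 encodes Hobit, a transcription factor of tissue-resident lymphocytes, and 7 of its 8 regions were closed only in iNKT17 cells. Together with the neighbour Crybg2 they formed the run with the most members, with 10 of the 11 regions in 20.9 kb (chr4:134041388-134062273). The region 5.98 kb upstream (chr4:134047604-134048103), whose sequence is shown above, was at 6.54 and 6.51 in C57BL/6 iNKT1, 5.31 and 5.02 in iNKT2 and −1.06 and −2.29 in iNKT17 libraries. The Hivep3-/- values were 6.34 and 6.23, 3.63 and 2.68, and 0.38 and −1.06. The 3 Hivep3-/- subsets did not overlap, and the fitted difference was −6.62 ± 0.46 (SE, limma adjusted p = 8.68e-06) against iNKT1 and −3.49 ± 0.46 (adjusted p = 0.000374) against iNKT2. Of the 7 regions 6 were called against both subsets, and 3 met the rule again.

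All 4 regions nearest to Samd3, a gene for a SAM domain protein, were closed only in iNKT17 cells and all 4 were called in Hivep3-/- cells. With 1 added on the linear scale, the region 1.35 kb upstream was no longer called against iNKT2 (−1.30). The Samd3 promoter (chr10:26229461-26229960) was at 5.84 and 5.68 in C57BL/6 iNKT1, 4.44 and 4.12 in iNKT2 and −3.12 and −3.02 in iNKT17 libraries. Hivep3-/- libraries had 5.76 and 5.42, 3.08 and 3.39, and −3.06 and −1.06, where −3.06 is the lowest value of that library. A fitted difference against a library at its lowest value depends on how zero counts were handled, and 98 of the 960 regions (10.2%) had a Hivep3-/- iNKT17 library there. The region 26.5 kb upstream (chr10:26202927-26203426) kept a gap of 4.29 in Hivep3-/- cells, against 4.44 in C57BL/6 cells.

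The largest C57BL/6 gaps otherwise lay at the Trav15 copies shown above (7.59, 5.86 and 5.82 for the 3 upstream copies), in an intron of Garnl3 (7.01), in an intron of Ccdc80 (6.46) and 6.83 kb upstream of Arsb (6.03). The copy upstream of Trav15n-2 (chr14:53264193-53264692) was at 5.00 and 4.98 in C57BL/6 iNKT1, 4.66 and 4.76 in iNKT2 and −3.12 and −1.15 in iNKT17 libraries. Among Hivep3-/- libraries it was at 4.31 and 4.35, 3.65 and 4.24, and −3.06 and −2.58, the lowest values of both iNKT17 libraries. Its gap of 6.24 was the largest of the 960 in Hivep3-/- cells. The Garnl3 region (chr2:33030080-33030579) was at −4.05 in both C57BL/6 iNKT17 libraries and at 2.96 or higher in the other 4, and all 4 regions in a run of 10.7 kb at this gene were closed only in iNKT17 cells. The Ccdc80 region (chr16:45104992-45105491) fell in iNKT2 cells, from 2.59 and 2.41 in C57BL/6 to −0.40 and −1.01 in Hivep3-/- libraries, while Hivep3-/- iNKT1 libraries were at 3.25 and 2.99. Among the largest drops in Hivep3-/- cells were also regions 216 kb from the start of Adgrg6 and 183 kb from that of Prex1, with −4.88 and −4.77 against the nearer of the other subsets.

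Genes of the iNKT1 program held more of these regions than other lists. Of 177 regions at 21 such genes, 19 (10.7%) were closed only in iNKT17 cells, at 9 genes, and 16 of the 19 were called against both other subsets in Hivep3-/- cells, where 59.8% of all 960 were. Ccl5, a chemokine of cytotoxic cells, held 5 of its 7 regions, all called. Its region 4.67 kb upstream (chr11:83534944-83535443) was at 7.09 and 7.04 in Hivep3-/- iNKT1, 4.04 and 4.02 in iNKT2 and 0.57 and 0.19 in iNKT17 libraries, a difference of −6.69 ± 0.19 (SE, limma adjusted p = 6.09e-07) and −3.65 ± 0.19 (adjusted p = 6.54e-06). Il12rb2, a subunit of the IL-12 receptor, held 5 of 13, all called. Its intronic region (chr6:67348011-67348510) was at 6.47 and 6.22, 5.65 and 5.37, and 1.41 and 0.40 in the Hivep3-/- subsets, in the same order, and here iNKT2 cells were nearly as open as iNKT1 cells.

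At Ifng, the gene of IFN-γ, the promoter region (chr10:118440640-118441139) was at 6.48 and 6.40 in C57BL/6 iNKT1, 4.93 and 4.69 in iNKT2 and 0.18 and 0.91 in iNKT17 libraries. Hivep3-/- values were 6.47 and 6.26, 2.60 and 2.85, and −0.41 and −0.10, so that iNKT2 cells were lower and iNKT1 cells overlapped with C57BL/6. It was called against both (−2.98 ± 0.24 against iNKT2, SE, limma adjusted p = 3.15e-05), as was the promoter of the chemokine Xcl1 (−2.19 ± 0.25, adjusted p = 0.000186). The intronic region of Tbx21, the T-bet gene, was called as well (−1.76 ± 0.32 against iNKT2, adjusted p = 0.00214), but not without Hivep3-/- iNKT2 replicate 1 (−1.27) or iNKT17 replicate 2 (−1.53), which leave it under 3-fold. The same held for a region upstream of the chemokine receptor Cxcr3, with −1.78 ± 0.27 (adjusted p = 0.000806) and −1.39 without iNKT17 replicate 2. With 1 added on the linear scale, neither the Tbx21 nor the Cxcr3 call held (−1.30 and −1.45). The regions of Il2rb, the CD122 gene used in the sort, and Ms4a4b were under 3-fold against iNKT2 cells, at −1.45 and −1.52. They passed 3-fold without iNKT17 replicate 1 (−1.59 and −1.88), and Il2rb also without iNKT2 replicate 2 (−1.70).

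The promoter of Nkg7, a protein of cytotoxic granules (chr7:43436792-43437291), was no longer closed only in iNKT17 cells of Hivep3-/- mice. It was at 7.32 and 7.19 in C57BL/6 iNKT1, 3.89 and 3.61 in iNKT2 and 1.29 and 0.97 in iNKT17 libraries, and at 7.30 and 7.22, 1.44 and 1.47, and 1.88 and 0.97 in Hivep3-/- libraries. The Hivep3-/- iNKT2 and iNKT17 libraries overlapped, with a fitted difference of −0.04 ± 0.29 (SE, limma adjusted p = 0.935), and iNKT1 cells stayed 5.84 above iNKT17 cells.

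Genes of the iNKT2 program held 15 of 211 regions (7.11%), at 5 of 12 genes, and 11 of the 15 were called against both subsets. At the Il4 and Il13 cytokine genes, 6 of the 9 regions in 15.4 kb (chr11:53618197-53633564) were closed only in iNKT17 cells, and all the regions counted for these genes were called. The Il4 promoter (chr11:53618197-53618696) was at 5.30 and 5.12 in C57BL/6 iNKT1, 5.54 and 5.43 in iNKT2 and 2.35 and 2.27 in iNKT17 libraries, and at 4.39 and 4.37, 4.68 and 4.67, and 0.74 and 1.93 in Hivep3-/- libraries. The Hivep3-/- difference was −3.05 ± 0.34 (SE, limma adjusted p = 0.000101) against iNKT1 and −3.34 ± 0.34 (adjusted p = 9.50e-05) against iNKT2. All 3 Hivep3-/- subsets were lower than their C57BL/6 counterparts in this region. The Il4 promoter value of the marker check differed from it, with 5.13 in C57BL/6 iNKT1 and 4.83 in C57BL/6 iNKT17 cells. In iNKT2 cells that value was 5.73 in C57BL/6 and 5.78 in Hivep3-/- mice. Izumo1r, a folate receptor family gene whose product was used to sort iNKT2 from iNKT17 cells, held 5 of 9 regions, 3 of them called, and Ccr9, a chemokine receptor of thymocytes and gut T cells, held 2 of 13, both called. The 2 regions at Plac8 were not called.

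In the whole table, 1.52% of the regions were closed only in iNKT17 cells. T cell identity genes held 5 of 345 (1.45%), and 3 were called, at Lef1, S1pr1 and Ikzf2. The intronic region of Lef1 (chr3:131115996-131116495) was more open in iNKT2 than in iNKT1 cells. It was at 2.32 and 2.35 in Hivep3-/- iNKT1, 3.57 and 3.66 in iNKT2 and −1.52 and −1.06 in iNKT17 libraries. Its gap there was 3.38, against 1.72 in C57BL/6 cells. S1pr1, the receptor by which T cells leave the thymus, had a called region (−2.55 ± 0.32 against iNKT2, SE, limma adjusted p = 0.000263). The Ikzf2 (Helios) region was called (−2.09 ± 0.49, adjusted p = 0.00804) but at −1.40 without iNKT17 replicate 1 it was not, and that of Foxp1 was not called against both.

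Costimulation and adhesion genes held 9 of 155 (5.81%), at Cd5, Cd6 and Cd27, and 4 were called. Cd6, like Cd5 a receptor that tempers T cell receptor signals, had a region (chr19:10815806-10816305) at 6.69 and 6.51, 4.50 and 4.12, and 1.95 and 0.40 in the Hivep3-/- subsets, called with −5.42 ± 0.41 (SE, limma adjusted p = 1.33e-05) and −3.13 ± 0.41 (adjusted p = 0.000368). That of Cd27, a TNF receptor family member, was called at −1.65 against iNKT2 but reached only −1.40 without iNKT2 replicate 1 and −1.23 without iNKT17 replicate 1. T cell receptor signalling genes held 3 of 258 (1.16%), at Prkcq, Ubash3a and Txk, of which 2 were called. With 1 added on the linear scale, neither the Ubash3a nor the Txk region was called against iNKT2 (−1.17 and −1.34), nor were those of Ikzf2 (−1.44) and Cd27 (−1.30). The iNKT17 program held 1 of 190 (0.526%), an intronic region of Rora that was called against both subsets (−2.54 ± 0.35 against iNKT2, SE, limma adjusted p = 0.000441), and cytokine receptor and STAT genes held 0 of 145.

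**Figure D5:**
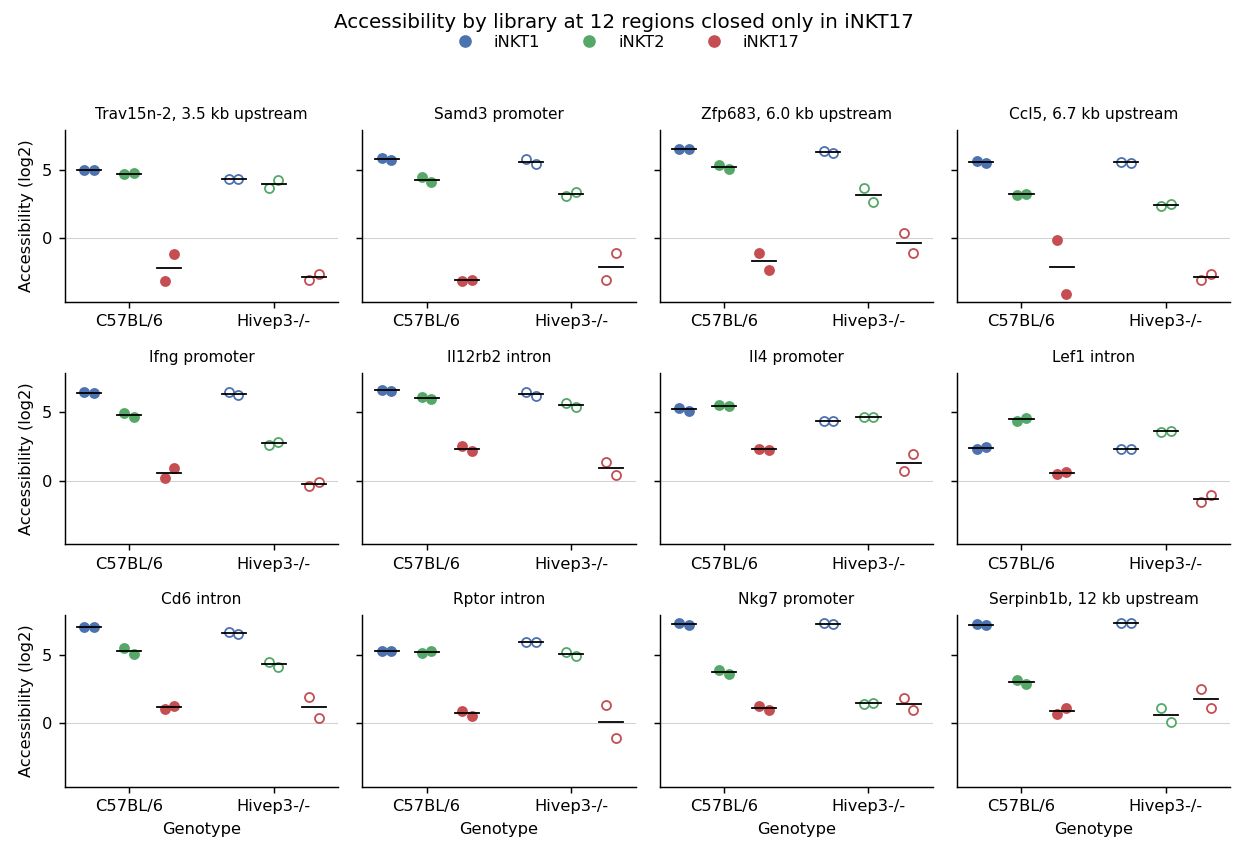
Accessibility (log2) of 12 of the 960 regions in each library, by genotype (filled C57BL/6, open Hivep3-/-) and subset (colour), with lines at the mean of the 2 libraries. In Hivep3-/- cells iNKT17 points lie under all others in 10 of the panels, but overlap with iNKT2 points or exceed them at the Nkg7 promoter and upstream of Serpinb1b.

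Of the 6 regions with the most negative gap in Hivep3-/- cells, 4 were called lower in Hivep3-/- iNKT17 than in iNKT1 cells and 0 against iNKT2 cells. The most negative, in an intron of Hspa12b (chr2:131140542-131141041), was at 4.77 and 4.76 in C57BL/6 iNKT1, 3.32 and 3.70 in iNKT2 and −1.06 and −1.65 in iNKT17 libraries. In Hivep3-/- cells it was at 2.95 and 2.35, −3.79 and −1.38, and −3.06 and −0.55, so that both iNKT2 libraries were as low as iNKT17. The region 12.2 kb upstream of Serpinb1b, a protease inhibitor gene (chr13:33071715-33072214), was at 7.33 and 7.30 in Hivep3-/- iNKT1, 1.10 and 0.10 in iNKT2 and 2.49 and 1.11 in iNKT17 libraries. In C57BL/6 cells its iNKT2 libraries were at 3.15 and 2.85 and its iNKT17 libraries at 0.66 and 1.11. Those at Npepps, Sema6a, Exoc6 and Arhgap26 had gaps of −2.29, −2.12, −1.76 and −1.62. Libraries of 1 subset lay far apart in them, as at Npepps with 1.10 and −2.39 in Hivep3-/- iNKT2 cells.

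At Hivep3 itself, 2 of 21 regions were closed only in iNKT17 cells, and both were called against both subsets in Hivep3-/- cells. The one 1.59 kb upstream of an internal start site (chr4:119812659-119813158) was at 4.04 and 4.70 in C57BL/6 iNKT1, 5.18 and 5.32 in iNKT2 and 2.23 and 2.27 in iNKT17 libraries. In Hivep3-/- libraries it was at 5.02 and 4.86, 5.06 and 4.81, and 2.08 and 2.00, with a difference of −2.90 ± 0.18 (SE, limma adjusted p = 4.48e-06) against iNKT1 and −2.90 ± 0.18 (adjusted p = 1.09e-05) against iNKT2. The Hivep3-/- iNKT17 libraries did not overlap with the others, which the rule required in C57BL/6 cells.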

How the data were processed

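The authors trimmed the reads to 50 bp with Trimmomatic (0.39 in the submitters' processing notes), mapped them to mm10 with the ENCODE ATAC-seq pipeline, merged the peaks of all libraries to 500 bp regions and counted transposase insertions with chromVAR. The deposited values are log2 insertions per kilobase, normalized by the authors with voom. All 12 libraries share 1 maximum and nearly the same quartiles, and whether quantiles were equalized between libraries is not given in the sources used here. This normalization hides the depth and any genome-wide change, and no counting interval can be given.

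Column names were matched to the sample titles by genotype, subset and number. Members and gene lists were chosen with earlier results of these data known. Group means of the 6 Hivep3-/- libraries were fitted with limma 3.58.1 (R 4.3.3) with a trend of the variance and no filter on low values (3 residual and 5.87 prior degrees of freedom), and p was adjusted by Benjamini-Hochberg over all 63309 regions. The fit was tested on simulated data. The titles number the mice, and deviations of same-numbered libraries of 1 genotype correlated with 0.120–0.167 between subsets. The reported fit did not pair libraries, and pairing by number was used only in an alternative fit with a replicate block. Genes are from the vM21 GENCODE set, and a gene of a list has 10 kb on either side. Promoters were centred up to 1000 bp from the start of any transcript, and nearest genes were protein-coding, T cell receptor or immunoglobulin genes. Other computations used Python 3.11.15 with numpy 2.4.6, pandas 2.3.3, scipy 1.17.1, biopython 1.88 and matplotlib 3.10.9.

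Named are the 10 members with the largest C57BL/6 gap, the 10 with the largest drop below both subsets among those called, the 6 with the most negative Hivep3-/- gap, the largest gap at each listed gene, the genes with the most members and those next to the thresholds. Some genes of the lists and neighbours of the thresholds are not reported here. Alternatives were other fold thresholds, pseudocounts, windows and fits, and leaving out each library.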

Additional observations from a re-analysis of the deposited data

Results flagged for a closer look

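Upstream of Serpinb1b, iNKT17 cells were lower than iNKT2 cells in both C57BL/6 replicates and higher in both Hivep3-/- replicates, where the fitted difference was 1.20 (limma adjusted p = 0.0589). The 2 sets of Hivep3-/- libraries nearly touched, with iNKT2 replicate 1 at 1.104 and iNKT17 replicate 2 at 1.111. Without the first of these 2 libraries the difference was 1.70 and without the second it was 1.89, both over 3-fold. The difference between the genotypes was not tested, since the C57BL/6 values chose the region. Of the 960 regions, 4 had both Hivep3-/- iNKT17 libraries above both iNKT2 libraries, against 30.7% of all regions, and 0 had both above both iNKT1 libraries.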

How the results depend on the processing

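The rule gave 2099 regions at 2-fold, 553 at 4-fold and 665 with a pseudocount of 1 on the linear scale, and 1019–1280 without single C57BL/6 libraries. The same rule was met in Hivep3-/- cells by 492 at 2-fold, by 210 with a pseudocount of 1 and by 293–366 without single libraries (288 in the report). Shares of all regions were not counted for these alternatives. With a pseudocount of 5 the calls fell to 467 against iNKT1, 138 against iNKT2, 72 against both and 183 between iNKT1 and iNKT2 (327 in the report), and with a pseudocount of 1 to 361 against both, since a constant shrinks differences to low values. Regions called against both in the whole table then numbered 84 and 713. With the replicate block that pairs libraries by number, 832, 651, 576 and 327 were called, and the block changed no call of a named region. Without single Hivep3-/- libraries, 552–573 were called against both, and a mean of at least 5 in either group left 444, with 874 and 716 members tested against iNKT1 and iNKT2. Promoters within 500 bp held 5.10% of the members, and the central 200 bp held the T-box sequence in 9.79%, with 1.59% of all regions. The genotype difference, whose alternatives were chosen after seeing the data, was −0.60 in iNKT2 with a pseudocount of 1. Without single libraries it was −0.36 to −0.25 in iNKT1, −0.67 to −0.60 in iNKT2 and 0.019 to 0.115 in iNKT17.

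Of the fitted differences of the 47 named regions, those that changed sign belong to Hspa12b, Npepps, Sema6a, Exoc6, Arhgap26 and Nkg7, none of them called against iNKT2. The difference between Hivep3-/- iNKT17 and iNKT2 at Sema6a was 0.17 and 0.065 with pseudocounts of 1 and 5, at Nkg7 0.0039 with 5, and at Exoc6 −0.062 with renewed quantile normalization. Without single libraries it was −0.48 to 2.04 at Hspa12b, −2.68 to 0.81 at Npepps, −1.81 to 1.65 at Sema6a, −0.46 to 1.30 at Exoc6, −2.30 to 0.66 at Arhgap26 and −0.49 to 0.42 at Nkg7, and the difference to iNKT1 at Exoc6 was −1.72 to 0.035. Where 1 library of a group is left out, the other is assumed to vary like the rest of the groups.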

Other observations

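Of the 960 regions 3 (0.312%) lay on the X chromosome, which held 1.81% of all regions. The share was 0.576% in the regions closed only in iNKT1, 1.52% in those closed only in iNKT2 and 1.00% in those open only in iNKT17. This was noticed after the values were seen.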
